A study of Mus musculus with 7 samples.

Results

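The H19 and Igf2 locus was examined here as the stretch of mouse chromosome 7 that holds both genes and the 100 kb on each side of them. H19 is an imprinted gene whose product is a long non-coding RNA. Igf2 encodes insulin-like growth factor 2, a growth factor of fetal tissues. In mm9, GENCODE places H19 (ENSMUSG00000000031.9) at 149761434 to 149764048 and Igf2 (ENSMUSG00000048583.9) at 149836673 to 149852721, both on the − strand, with 72.6 kb between them. The window ran from 149661434 to 149952721, which is 291 kb. Peaks of the pooled CTCF and Rad21 lists that overlapped it were the members. They were 37 of the 144052 peaks of both lists, of which 22 were CTCF peaks and 15 were Rad21 peaks.

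The lists came from ChIP-seq of livers of male Crl:CD1(ICR) mice aged 8 weeks, with 4 libraries for CTCF and 3 for Rad21, a subunit of the cohesin ring. No mouse carried a targeted allele or received a drug as far as the labels say, and no control antibody, input or second condition was analysed here. In ChIP-seq, a bound site appears as a pile of sequenced fragments, the peak, whose highest point is its summit. A separate list held the 52436 CTCF sites that the authors sorted into 4 classes. These were anchors of topologically associating domains (TADs), anchors of loops predicted inside TADs (intra-TAD anchors), the remaining sites bound by cohesin and CTCF together (other CAC sites), and sites that CTCF occupies alone (lone CTCF sites).

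Imprinted genes are expressed from the allele of only 1 parent. At this locus H19 is expressed from the maternal allele and Igf2 from the paternal allele. CTCF binds the imprinting control region just upstream of H19 on the maternal allele, where it is unmethylated, and insulates Igf2 from enhancers that lie on the far side of H19. Methylation of the paternal copy prevents that binding. Both genes are highly expressed in fetal liver and are largely silenced after birth. Cohesin accumulates where CTCF holds it, and loops tend to form between CTCF motifs that point toward each other. The lists do not separate the alleles, so each value below is the sum of the maternal and paternal chromosomes.

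The imprinting control region is known for repeated CTCF motifs, so its sequences are shown first. A 19-bp CTCF motif learnt from the strongest TAD anchors of other chromosomes was scored on both strands, as a log2 odds score. In the 5 kb upstream of H19, 4 matches with scores of 10.26 to 12.08 lay inside CTCF peaks, 2 in each of 2 peaks. They are given in the order in which they lie from H19 outward, read on the − strand of mm9, with the 19 bases of the match in capitals and 5 flanking bases on each side.
Match 1, chr7:149766207-149766235: agacgATGCCGCGTGGTGGCAGTAcaata
Match 2, chr7:149766662-149766690: ggatgCTACCGCGCGGTGGCAGCAtactc
Match 3, chr7:149767688-149767716: cagggTTGCCGCACGGCGGCAGTGaagtc
Match 4, chr7:149767932-149767960: gggagTTGCCGCGTGGTGGCAGCAaaatc

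All 4 matches lay on the − strand, the strand of H19, at 2173, 2628, 3654 and 3898 bp upstream of its start. The distances between neighbours were 455, 1026 and 244 bp. Each match held 2 or 3 CpG dinucleotides, the bases at which DNA is methylated. Among the 52463 CTCF peaks of the genome whose best match passed the same low score limit, 13.2% had a match with at least 2 CpG and 42.9% had a match with at least 1.

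The letters that all 4 matches shared were TNCCGCNNGGNGGCAG, where N stands for any base. This pattern was written down after the matches were seen, so these 4 hold it by construction. Searched on both strands, it occurred 88 times in the genome, and 42 of those places (47.7%) were inside a CTCF peak. Just 39 CTCF peaks (0.0509% of all) held it. Of these, 3 held it more than 1 time, and 2 of the 3 were the peaks upstream of H19. The window held no further copy.

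By the motif score these 4 matches were of moderate quality. Limits were set from 50570 windows of 200 bp lying 2 kb away from CTCF sites, namely the score that 5% of them reached (9.05) and the score that 1% reached (13.23). Both are rates per window of 200 bp, so a longer stretch such as 5 kb has more chances to reach them. How many matches such a stretch would hold by chance was not computed. All 4 matches fell between the limits. The single match in the 5 kb upstream of H19 that passed the 1% limit lay closer to the gene, 1126 bp from its start, with a score of 14.09 and 0 CpG, and had no peak of either factor. Inside H19 a match on the + strand scored 16.11 and also had no peak. A further unbound match with a score of 16.0 lay 9705 bp upstream of H19. The order of motif scores was therefore not the order of binding around H19. Between the limits, too, some matches were unbound, with scores of 12.16 and 11.2 in the 5 kb upstream of H19 and of 13.16 inside the gene. The unbound matches above the 1% limit are shown for comparison with the bound ones, each read on the strand of the match.
H19 body, + strand, chr7:149763666-149763694: tcaccTGCCCAGCAGACGGCGGTCctcac
Upstream of H19, − strand, chr7:149765160-149765188: cacaaCCACCACAAGGTGACAGCAcagac
Further upstream, + strand, chr7:149773739-149773767: gtgcaGAGCCACAAGATGGCAGGAgcccg

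**Figure D1:**
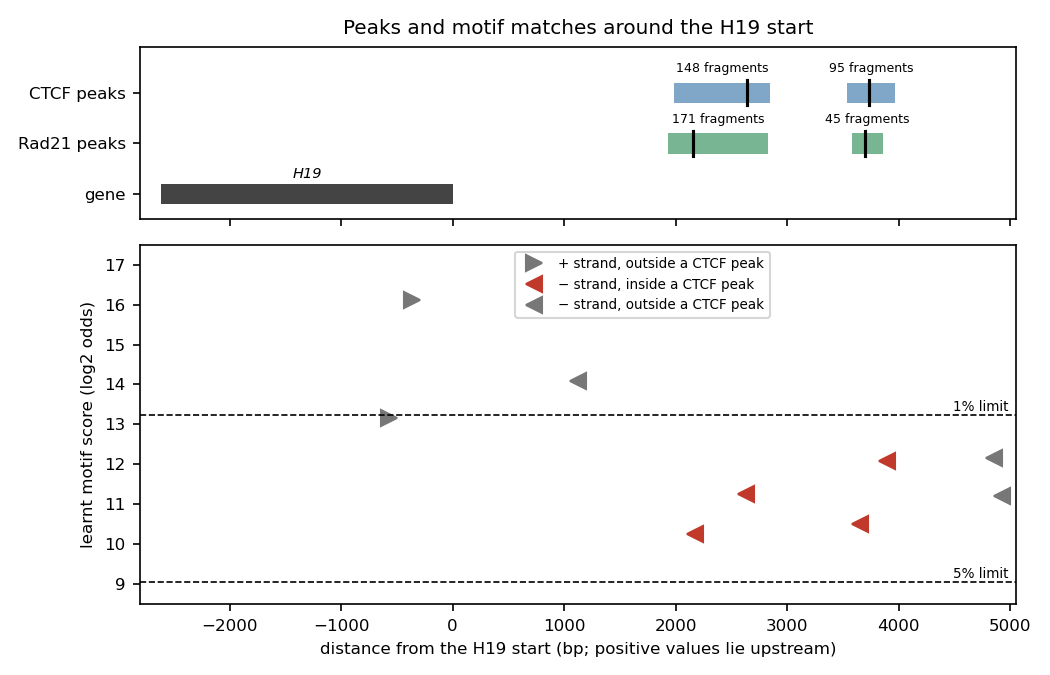
Peaks (upper panel) and matches of the learnt CTCF motif (lower panel, log2 odds score) against the distance from the H19 start in bp, with upstream to the right. Bars are peaks, black ticks their summits, and the dashed lines the scores that 5% and 1% of flanking windows reached. The 4 matches inside CTCF peaks all point toward H19 and lie between the limits, whereas the unbound match at 1126 bp and that in H19 with a score of 16.11 lie above the 1% limit.

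Both CTCF peaks of the imprinting control region were intergenic and were classed as other CAC sites. Their summits lay 2.64 kb and 3.73 kb upstream of the H19 start. The nearer peak (149766036 to 149766897) was 862 bp wide, the widest of the 22 CTCF peaks of the locus, and spanned matches 1 and 2. It had 148 CTCF fragments at its summit (95% exact Poisson interval 125.1 to 173.9). The farther peak (149767581 to 149768014) spanned matches 3 and 4 and had 95 CTCF fragments (76.9 to 116.1). The 2 intervals did not overlap. Fragment counts were recovered from the deposited fold and p-value of each peak. The intervals cover counting error only, since the libraries were pooled and copies made by PCR are not independent molecules.

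Among all 76683 CTCF peaks, whose median was 69 fragments, the nearer peak had more fragments than 69.3% and the farther peak more than 59.1%. These were middle ranks, above the genome median. By the deposited score, which follows the q-value, the nearer peak ranked above 66.2% of all peaks.

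Rad21 was present at both. The nearer site had 171 Rad21 fragments (146.3 to 198.6), more than 90.0% of all 67369 Rad21 peaks, and the farther site had 45 (32.8 to 60.2). The Rad21 peak of the farther site ranked above 46.8% of all Rad21 peaks by fragments, 30.8% by score and 14.2% by fold. Its fold of 3.116 was the lowest of the Rad21 peaks of the locus. The nearer site thus stood higher among Rad21 peaks than among CTCF peaks. It had 1.16 Rad21 fragments per CTCF fragment, a ratio above that of 85.7% of the 51621 co-bound CTCF peaks of the genome, where co-bound means sharing at least 1 bp with a Rad21 peak. The lists pool 4 CTCF and 3 Rad21 libraries and carry no common depth scale, so such a ratio has meaning only by its rank among other sites. The CTCF count is its denominator, and stronger CTCF sites had lower ratios, with a median of 0.627 for counts within 10% of 72 fragments, 0.422 within 10% of 148 and 0.286 within 10% of 800. Ranks are therefore also given among the co-bound sites with CTCF counts within 10% of the site in question, and the nearer site then ranked above 98.5% of 2798. At the nearer site the ratio joins a CTCF and a Rad21 summit that lie on different motif matches, and so does not describe a single motif. The farther site had a ratio of 0.474, above 40.2% of all co-bound sites and 40.0% of those of like strength.

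At the nearer peak the summits of the 2 proteins were 486 bp apart. The CTCF summit lay 13 bp from the centre of match 2, while the Rad21 summit lay 18 bp from the centre of match 1. Match 1 lies on the H19 side. At the farther peak, the CTCF summit lay 78 bp from the centre of match 3 and 166 bp from that of match 4, between the 2. The Rad21 summit there was 40 bp from match 3, and the Rad21 peak did not reach match 4. So each Rad21 summit lay nearer to the H19 end of its CTCF peak than the CTCF summit did.

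The wide separation was unusual among co-bound sites of all widths. However, the nearer CTCF peak was 862 bp wide, against a genome median of 398 bp, and its Rad21 peak 901 bp, against 413 bp. No comparison was made with peaks of like width. With offsets measured along the deposited motif, positive toward its 3′ side, the 14 co-bound sites of the locus had a median offset of the Rad21 summit from the CTCF summit of 18 bp, from −26 to 486 bp. Of these, 12 lay within 50 bp and 11 were positive, while the 95% interval of the median, −12 to 46 bp, included 0. Measured from the centre of the learnt motif, which 10 of the sites had at the 1% limit, the median was 6.5 bp and 6 of 10 were positive. The 35443 such sites of the genome had a median offset of 17 bp (quartiles −7 and 41 bp), and 1.59% were at least as far apart as 486 bp in either direction. The other locus site beyond 50 bp was the site at the start of Mrpl23, with 153 bp.

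No other peak of either factor lay within 5 kb upstream of H19. The body of H19, which includes the microRNA gene Mir675, held 0 CTCF and 0 Rad21 peaks. The 30 kb downstream of H19, the side on which its enhancers lie and where the non-coding gene Nctc1 is, also held 0 peaks of both factors. The largest distance between neighbouring CTCF summits in the window was the 42.7 kb from the second Mrpl23 site to the imprinting control region. A peak absent from the lists may have missed the authors' threshold, been dropped by their filters, or lain where reads do not map uniquely. Weaker binding could not be seen.

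The body of Igf2 differed from the region upstream of H19. It held 3 CTCF peaks with 26, 21 and 34 fragments, in the order of rising coordinates, and 0 Rad21 peaks. All 3 counts were below the genome median. The peak with 26 fragments lay in an untranslated exon of Igf2 just upstream of the start of Igf2as, an antisense transcript, and its best motif match scored 14.93 with 3 CpG. The peak with 21 lay in an Igf2 intron and an exon of Igf2as, with a best match of 9.27. The peak with 34 fragments (149849994 to 149850317) lay in an intron of both genes, 2.55 kb inside Igf2 from its start. It was the only 1 of the 3 in the class list, as a lone CTCF site without a motif, and carried no flag for Stag1, Stag2 or Top2b. The 95% intervals of the 3 counts overlapped one another.

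**Figure D2:**
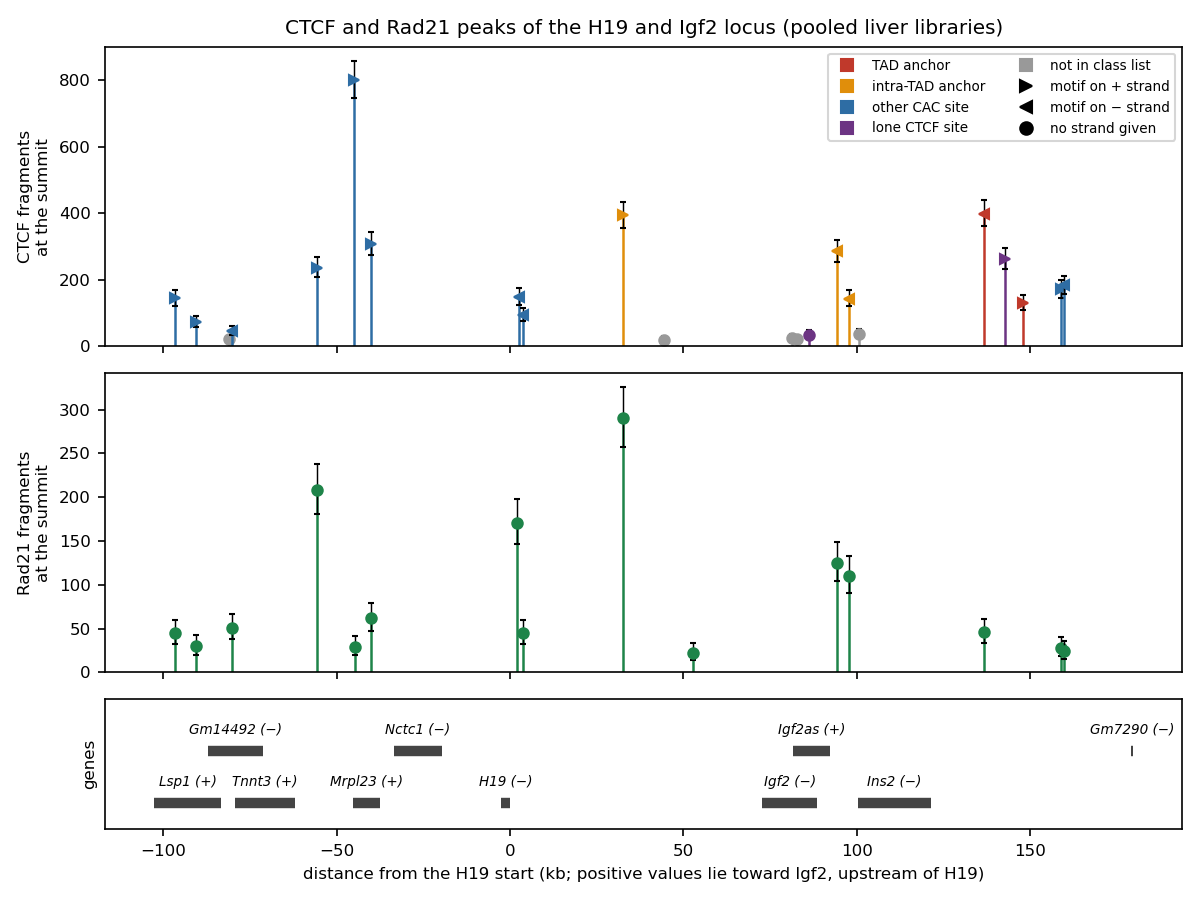
CTCF (upper panel) and Rad21 (middle panel) fragments at each peak summit against the distance from the H19 start in kb, with genes and their strands below. Vertical bars with caps are 95% exact Poisson intervals, triangles give the deposited motif strand and colors the class. The tallest CTCF peak, with 800 fragments at the start of Mrpl23, has 29 Rad21 fragments, whereas the tallest Rad21 peak, with 290 fragments, lies between H19 and Igf2.

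The 3 intra-TAD anchors of the window lay around Igf2. The first (149796409 to 149796887) stood in the intergenic space between the genes, 32.6 kb upstream of H19. It had 394 CTCF fragments (356.1 to 434.9) and 290 Rad21 fragments (257.6 to 325.4), the highest Rad21 count of the locus and above 96.2% of all Rad21 peaks. Its interval did not overlap that of the next Rad21 peak in rank. Its deposited motif was on the + strand, pointing toward Igf2.

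The other intra-TAD anchors lay 5.51 kb and 9.05 kb upstream of the Igf2 start, between it and the insulin gene Ins2. The nearer one (149857974 to 149858441) had 285 CTCF fragments (252.9 to 320.1) and 125 Rad21 fragments (104.0 to 148.9). The farther one (149861594 to 149861983) had 143 CTCF fragments (120.5 to 168.5) and 110 Rad21 fragments (90.4 to 132.6). Their CTCF intervals did not overlap, while their Rad21 intervals did. Both motifs were on the − strand, pointing back toward Igf2 and H19. The + motif at 32.6 kb and these 2 − motifs thus faced each other with all of Igf2 between them. The lists used here give the class of an anchor but not its partner. The study reports its predicted loops in a separate listing, which was not used here for the pairing. Their matches are shown because the study used the orientation of the motif, along with the strength of the peaks, to predict loops, each read on the strand of the match in mm9.
Between the genes, + strand, chr7:149796650-149796678: accgcTGACCTCACGGGGGCGCAAgagac
Upstream of Igf2, − strand, chr7:149858222-149858250: ttaaaTGACCACCAGATGTCAAGCtcgag
Upstream of Igf2, − strand, chr7:149861754-149861782: ggaagCGTCCAGCAGAGGTCACCAaaacc

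The match between the genes held 2 CpG, while the matches upstream of Igf2 held 0 and 1. Rad21 summits at the 2 sites upstream of Igf2 lay 2 and 3 bp from the CTCF summits, and that of the site between the genes lay 36 bp away, toward Igf2. The ratios of Rad21 to CTCF fragments at the 3 anchors were 0.736, 0.439 and 0.769, around the genome median of 0.562 and inside the genome quartiles of 0.342 and 0.889. Among co-bound sites of like CTCF strength they ranked above 87.5%, 60.6% and 89.0%. The study selected intra-TAD anchors by Rad21 score as well as CTCF score, so these ranks are not independent of the class.

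A single Rad21 peak of the window overlapped no CTCF peak. Such cohesin-non-CTCF (CNC) peaks are often found at enhancers. It lay at 149816529 to 149816907, between the genes and 52.7 kb upstream of H19, with 22 Rad21 fragments (13.8 to 33.3). It had the fewest fragments of the Rad21 peaks of the window, and its best motif match, 9.43, lay under the 1% limit. The Rad21 peak at the start of Mrpl23 was lower by score and fold, and that of the farther site of the imprinting control region was lower by fold. A CTCF peak of 20 fragments, the fewest of the CTCF peaks, lay 44.4 kb upstream of H19 and had no Rad21 peak. By score and fold the peak of 21 fragments in Igf2 was lower still. Another unclassed CTCF peak without Rad21, with 38 fragments (26.9 to 52.2), lay in a coding exon of Ins2.

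The strongest CTCF site of the window by fragments and score was at the start of Mrpl23, which encodes a protein of the mitochondrial ribosome. The peak (149718883 to 149719334) had its summit in an untranslated exon 372 bp inside the gene, 45.0 kb downstream of the H19 start. It had 800 CTCF fragments (745.5 to 857.4), more than 98.5% of all CTCF peaks. Its interval did not overlap that of the next site in rank, a TAD anchor with 399 fragments. By fold (22.98), however, it stood below that TAD anchor (29.33), the intra-TAD anchor between the genes (25.15) and the lone CTCF site beyond Ins2 (23.7).

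Rad21 at this site was weak, with 29 fragments (19.4 to 41.6). The ratio of 0.0362 was the lowest of the locus, and 18 of the 51621 co-bound sites of the genome had a lower one. Among the 558 CTCF peaks of the genome with fragment counts within 10% of 800, this peak included, 557 overlapped a Rad21 peak. Their median was 221 Rad21 fragments, with quartiles of 129 and 384, and 0 had fewer than 29. The site nevertheless carried the flags for Stag1 and Stag2, the alternative subunits that join Rad21 in cohesin, and for Top2b, a topoisomerase found beside CTCF and cohesin. These flags came from public data on other samples. The best motif match was weak, with a score of 9.77 and a deposited score of 9.21, although the peak had the most CTCF fragments of the locus. It is shown for comparison with the second Mrpl23 site, which lies in an intron, 5247 bp from the gene start.
Mrpl23 start, + strand, chr7:149719057-149719085: cttccTGACCAGGAGGTGCGGCTGccatg
Mrpl23 intron, + strand, chr7:149723999-149724027: acagcAGGCCGCTAGATGGCAGTCtcgtg

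The intronic Mrpl23 site had a best match of the learnt motif of 17.66, the highest among the CTCF peaks of the window, and a deposited motif score of 17.05, exceeded at 4 other sites. It had 308 CTCF fragments (274.6 to 344.4) and 62 Rad21 fragments (47.5 to 79.5). Its ratio of 0.201 was above that of 8.8% of co-bound sites and 16.9% of those of like strength, but the ratio of the deposited folds, 0.651, was above that of 42.3%. Both Mrpl23 sites had the highest local background estimates of the CTCF peaks of the locus, 33.9 and 31.5 fragments, against a locus median of 10.1. That estimate is made from the reads around a peak, and the part it plays in the deposited folds of 23.0 and 9.50 was not tested.

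On the same side of H19, a site 55.6 kb from its start, in the intergenic space between the troponin gene Tnnt3 and Mrpl23, had a ratio of 0.881, above that of 74.6% of co-bound sites and 95.1% of those of like strength. It had 236 CTCF fragments (206.8 to 268.1) and 208 Rad21 fragments (180.7 to 238.3), the second highest Rad21 count of the locus. The 3 weaker co-bound sites beyond it lay in Lsp1, which encodes a leukocyte actin-binding protein, and in the overlapping gene model Gm14492. They had 144, 72 and 45 CTCF fragments, with 45, 30 and 51 Rad21 fragments, from the farthest to the nearest. An unclassed peak of 21 fragments lay beside the last of them. The first of these, 96.7 kb from H19, was the outermost member on that side. The next peak outside the window on that side, 137.4 kb from H19, had 39 CTCF fragments and overlapped a Rad21 peak of 25 fragments, although the class list has it as a lone CTCF site.

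**Figure D3:**
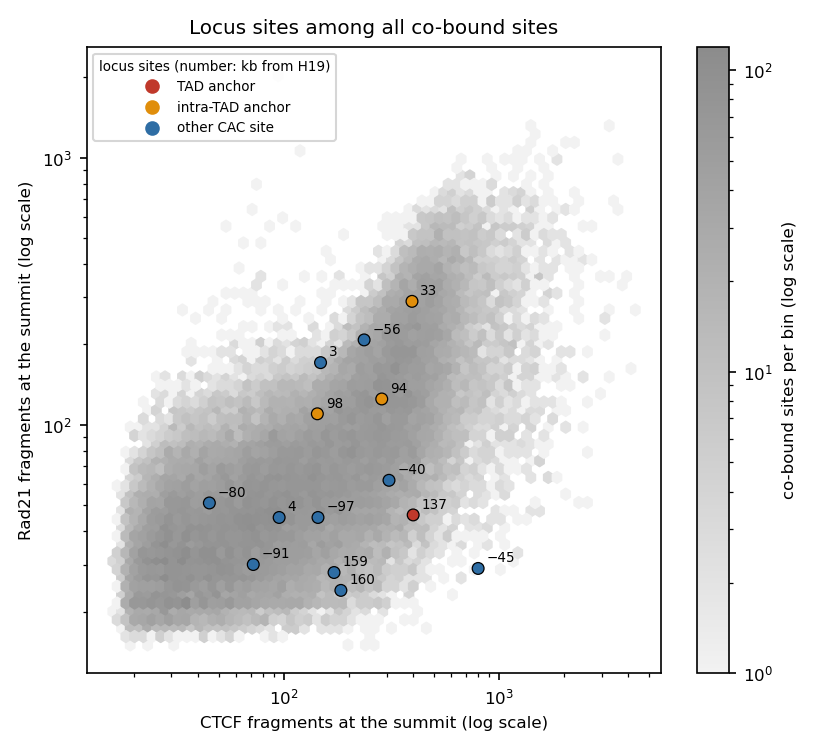
Rad21 against CTCF fragments at the summit, both on log scales, for the 14 co-bound CTCF sites of the locus (colored points, labelled with kb from the H19 start) over all 51621 co-bound sites of the genome (grey bins). The site at the start of Mrpl23 (−45) lies at the lower edge of the cloud, as does, less far out, the TAD anchor at 137, whereas the nearer site of the imprinting control region (3) lies toward the upper edge.

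Beyond Ins2, 5 CTCF sites stood within 23.1 kb, at 136.8 to 159.8 kb from the H19 start. No gene overlapped them. They comprised both TAD anchors of the window, a lone CTCF site and 2 other CAC sites. Their CTCF counts were 399 (360.8 to 440.1), 263 (232.2 to 296.8), 129 (107.7 to 153.3), 171 (146.3 to 198.6) and 184 (158.4 to 212.6), in the order of rising coordinates. Each was above the genome median of 69.

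The ratio of Rad21 to CTCF ranked low at 3 of the 5 sites, and no Rad21 peak was called at the other two. The first TAD anchor was second in the locus by CTCF fragments. It had 46 Rad21 fragments (33.7 to 61.4), in the middle of all Rad21 peaks (above 48.1%), but a ratio of 0.115, above that of 1.93% of co-bound sites. The other 2 co-bound sites had 28 and 24 Rad21 fragments and ratios of 0.164 and 0.13, above 5.19% and 2.81% of co-bound sites. Among sites of like CTCF strength, whose median ratios were 0.365, 0.397 and 0.383, the 3 sites ranked above 4.1%, 5.7% and 2.31%. By the ratio of the deposited folds, the ranks of the 3 sites were 2.52%, 11.2% and 5.27%. The 2 sites without a Rad21 peak were the lone CTCF site and the TAD anchor with 129 fragments. The study chose TAD anchors by CTCF peaks, motifs and distance to a TAD boundary, and did not ask for cohesin. Of the 14278 CTCF peaks of the genome with at least 263 fragments, 141 (0.988%) lacked a Rad21 peak. The lone CTCF site therefore belonged to a small group, and it was stronger than 99.1% of the 10553 lone CTCF sites. For peaks with at least 129 fragments, 4.05% lacked a Rad21 peak.

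These 5 sites also shared most of their motif sequence. The authors used the presence, strand and score of a motif to form the classes, but these do not fix its letters. The matches are printed together for their likeness, in genome order, each read on the strand of the match in mm9.
TAD anchor, − strand, chr7:149900761-149900789: tgaatTGAACAGCAGAGGGAGACAaaggt
Lone CTCF site, + strand, chr7:149906825-149906853: cgagtTGAACAGCAGAGGGAGACAgaggt
TAD anchor, + strand, chr7:149912104-149912132: tgagtCAAACAGCAGAGGGAGACAaaggt
Other CAC site, + strand, chr7:149923023-149923051: tgaatCAACCACCAGAGGGAGACAaagac
Other CAC site, − strand, chr7:149923854-149923882: agaatCGACCACCAGAGGGAGACCaagac

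Pairs of these matches were identical at 15 to 19 of the 19 positions, with a median of 16, against 6 to 16 and a median of 10 among the other 11 classified sites of the locus with a match. The first TAD anchor and the lone CTCF site had the same 19 bases on opposite strands, 6.06 kb apart. With this one motif sequence the anchor had 399 CTCF and 46 Rad21 fragments, and the lone site had 263 CTCF fragments and no Rad21 peak. The unbroken run of identical bases was 20 bp long, and over the 619 bp centred on the match 35.1% of bases were identical when compared without gaps.

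The letters common to the 5 matches, ANCANCAGAGGGAGAC, were again written down after the matches were seen. On both strands they occurred 112 times in the genome and in 39 CTCF peaks (0.0509% of all), of which 5 were these. A further 1 lay within 1 Mb beyond the window. Of the 34 peaks outside the locus with these letters, 73.5% (55.6 to 87.1) were co-bound. Among CTCF peaks with counts within 10% of each of them, the co-bound share averaged 81.3%, inside that interval. The 25 co-bound peaks had a median of 207 CTCF fragments, and the other 9 had a median of 60. The ratios of the 25 had a median of 0.412, beside 0.377 for the 3010 co-bound peaks with CTCF counts within 10% of 207. The outermost members were the pair of other CAC sites at 159.0 and 159.8 kb, whose motifs on the + and − strands faced each other. The next peak outside the window, 221.4 kb from H19, had 369 CTCF and 50 Rad21 fragments.

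**Figure D4:**
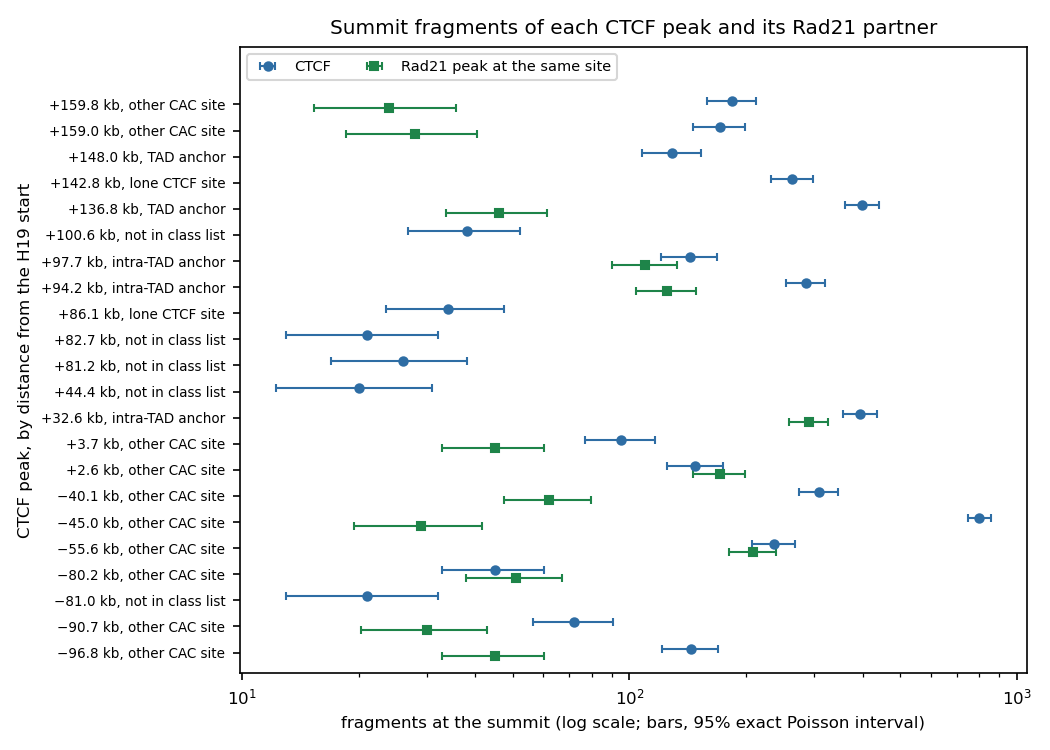
Fragments at the summit of each of the 22 CTCF peaks (circles) and of the Rad21 peak at the same site (squares), on a log scale with 95% exact Poisson intervals, ordered by distance from the H19 start and labelled with the class. Of the 5 sites from 136.8 kb onward, 2 have no Rad21 peak, and the 4 peaks from 44.4 kb to 86.1 kb are weak and without Rad21. Counts of the 2 factors share no depth scale, so circles and squares are to be compared along each factor and not with one another.

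In the order of CTCF counts over the window, the site at the start of Mrpl23 stood alone. The 2 sites that followed, the first TAD anchor (399) and the intra-TAD anchor between the genes (394), did not differ beyond their intervals, and were separated from the fourth site (308). From there on, each site overlapped the next in rank. The order of Rad21 counts was different. The intra-TAD anchor between the genes led with 290, followed by the Tnnt3 to Mrpl23 site (208), the nearer site of the imprinting control region (171), and the 2 sites upstream of Igf2 (125 and 110), whose counts overlapped between neighbours. A break then separated these 5 from the remaining 10 Rad21 peaks, which had 22 to 62 fragments.

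As a whole the window was rich in peaks. Of the 8803 consecutive windows of the same length over the genome, 88.6% had fewer than 22 CTCF peaks, with a median of 5, and 79.9% had fewer than 15 Rad21 peaks, with a median of 4. The median CTCF count of the locus was 143.5 fragments and 15 of 22 peaks were above the genome median of 69. The median Rad21 count was 46, close to the genome median of 47, and 7 of 15 peaks were above it. By the deposited score and fold the Rad21 peaks stood higher, with 9 and 10 of 15 above the genome medians, and locus medians of 255 against 164 and of 7.50 against 4.93.

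Too few sites lay in the window to tell its shares of co-bound, CNC and classified sites from those of the genome. Of the 22 CTCF peaks, 14 (63.6%, 95% exact binomial interval 40.7 to 82.8) were co-bound, against 67.3% of all CTCF peaks, and 17 were in the class list, against 68.4%. The one CNC peak was 6.67% of the 15 Rad21 peaks (0.169 to 31.9), against 22.7% of all Rad21 peaks. Where summits had to lie within 100 bp for co-binding, 3 of the 15 were without CTCF. The 17 classified sites were 2 TAD anchors (genome 11.2%), 3 intra-TAD anchors (17.3%), 10 other CAC sites (51.4%) and 2 lone CTCF sites (20.1%). Each of these genome shares lay within the wide interval of its locus share.

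Stag1 was flagged at 11 of the 17 sites (genome 70.6%) and Stag2 at 14 (genome 88.1%). Top2b was flagged at 4 of the 17, which is 23.5% (6.81 to 49.9), while it was flagged at 54.8% of the genome's classified sites, above that interval. The 4 sites with Top2b were the nearer site of the imprinting control region, the start of Mrpl23, the Tnnt3 to Mrpl23 site and the anchor 5.51 kb upstream of Igf2. None of the 5 sites beyond Ins2 had the Top2b flag, and 1 of them had the Stag1 flag. The sites are few and neighbours share sequence, so these shares were not tested.

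At the 1% limit, 11 of the 22 CTCF peaks had a motif match (genome 46.6%). So had 10 of the 15 Rad21 peaks, which is 66.7% (38.4 to 88.2), while the genome share of 36.4% lay below that interval. At the lower limit, 19 CTCF peaks had a match (86.4%, 65.1 to 97.1, genome 68.4%). Of those 19, 5 (26.3%, 9.15 to 51.2, genome 13.2%) held at least 2 CpG, namely both peaks of the imprinting control region, the anchor between the genes and 2 peaks in Igf2. In 16 of the 17 classified sites a motif strand was deposited, 9 on the + and 7 on the − strand, and the learnt motif gave the same strand at all 16. Of the 15 neighbouring pairs, 4 faced each other, 3 faced away from each other, 5 were both on + and 3 both on −. Genome shares of these orders were not computed, so the counts stand without a comparison. From the imprinting control region to Ins2 the order was −, −, +, −, −. Thus the 2 sites beside H19 pointed away from Igf2, and the next site, between the genes, pointed toward it.

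The genes around the members were counted by peaks within 5 kb of their spans. Of the 11 genes listed from the same domain and its flanks, 10 had a CTCF peak (90.9%, 58.7 to 99.8) and 9 a co-bound one (81.8%, 48.2 to 97.7). Of all 37310 annotated genes, which are shorter (median span 5.36 kb, against 10.7 kb in this list and 15.2 kb in the next), 60.2% had a CTCF peak and 54.0% a co-bound one. Both genome shares lay inside the intervals of the listed genes. The listed gene without a CTCF peak was Nctc1, with 0 peaks. Mir483, which lies inside Igf2, had a CTCF peak of 26 fragments and no Rad21. Th, which encodes the rate-limiting enzyme of catecholamine synthesis and lies outside the window, had the highest CTCF count of this list, 1358, with 147 Rad21 fragments at most. H19 itself had 2 CTCF peaks, both co-bound, and Igf2 had 3, none of them co-bound.

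The neighbouring imprinted domain, controlled from within Kcnq1, was listed with 12 genes, of which 11 were found in the annotation. All 11 had a CTCF peak and 10 a co-bound one, Ascl2 being the exception. Kcnq1, which encodes a potassium channel and spans 320 kb, had 14 CTCF peaks with up to 628 fragments and 15 Rad21 peaks with up to 899. Cdkn1c, which encodes a cell cycle inhibitor, had 1 CTCF peak of 443 fragments. At Ascl2 the CTCF peak had 39 fragments, inside the interval of the 34 fragments at Igf2 (23.6 to 47.5). The anchor with 285 fragments upstream of Igf2 lies just beyond the 5 kb counted here.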

How the data were processed

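The authors merged the raw reads of the 4 CTCF libraries and of the 3 Rad21 libraries, mapped them to mm9 with Bowtie2, kept uniquely mapped reads and called peaks with MACS2. Peaks in blacklisted regions, or resting on PCR duplicates alone, were dropped by them. Only 3 pooled lists were used here, so the values are not per mouse and carry no spread between replicates, and no test between groups was made. The deposited columns are a peak score (a whole number that follows the −log10 q), a fold ratio of summit fragments over local background, and the −log10 of the p-value and of the q-value. The deposited motif score and strand, class, and flags for Stag1, Stag2 and Top2b came from the authors' class list. The order of the flags was taken from the study's own listing.

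Fragments at the summit and local background were computed here from the fold and the −log10 p. They were whole numbers (deposited −log10 p met within 0.002, or within 1e-05 of its value where that is larger) at 99.996% of CTCF and 99.997% of Rad21 peaks, and at all 37 members. The study gives a range of reads per library, and how many of the fragments at a summit each contributed is not known from pooled lists. The motif (19 bp) was learnt from the strongest 1000 TAD anchors outside chromosome 7, within 50 bp of the summit, and gave the deposited strand at 99.7% of classified sites on chromosome 7 with a match at the 1% limit. Sequences and genes came from NCBIM37, the assembly of mm9, and GENCODE vM1. Windows with more than 50% unknown bases were left out of the density comparison. Shares carry 95% exact binomial (Clopper-Pearson) intervals and counts 95% exact Poisson intervals.

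The locus, the gene lists and the rules for naming peaks were chosen with earlier results of these data known. Named were H19, Igf2, genes that hold or are nearest to a peak, the fixed neighbours, all peaks upstream of H19, in both genes and in the 30 kb downstream of H19, all classified sites, and the strongest 10 peaks of each factor. Computation used SciPy 1.17.1 and NumPy 2.4.6 under Python 3.11.15, with pandas 2.3.3, samtools 1.23.1, pysam 0.24.0 and Matplotlib 3.10.9.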

Additional observations from a re-analysis of the deposited data

How the results depend on the processing

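Of 44 alternatives over 16 values, 26 left the value within its interval (or, for counts, within 1.5 times) and 18 moved it. With 50 kb instead of 100 kb on each side, the locus held 13 CTCF and 9 Rad21 peaks, 1 TAD anchor, 4 other CAC sites and 1 lone CTCF site. With a peak score of at least 100, 0 of 11 Rad21 peaks lacked CTCF, which allows a share of up to 27.3%, and with summits required within 100 bp 3 of 15 did. The median offset of Rad21 at co-bound sites, 18 bp, was 6.5 bp from the centre of the learnt motif. The rank of the nearer CTCF peak of the imprinting control region, 66.2% by score, was 59.3% by the deposited fold, 69.3% by fragments and 50.6% among classified sites. The rank of its Rad21 peak, 89.0% by score, was 84.2% by fold and 90.0% by fragments. The number of motif matches in the 5 kb upstream of H19 depended on the limit, with 1 at the 1% limit, 7 at the 5% limit and 0 at the 0.1% limit (16.16). In 10 kb there were 2, and the letters shared by the bound matches, an alternative chosen after seeing the data, gave 4. The rank of the ratio of Rad21 to CTCF at the intronic Mrpl23 site, 8.8% by fragments, was 42.3% by fold, an alternative also added after seeing the data. Among sites of like CTCF strength, added likewise, that at the start of Mrpl23, 0.0349%, was 0.0%. At the 5% limit 19 CTCF peaks of the locus had a match, against 11. Among windows of chromosome 7, also added later, 85.3% had fewer CTCF peaks. The lowered limits count more matches by construction, and the cause of the other shifts was not tested.

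No paired analysis was possible because the lists hold pooled libraries and no value per replicate. Leaving out single libraries was not possible for the same reason. Peaks near the lowest counts, 20 CTCF and 22 Rad21 fragments here, are limited by depth, and the alleles and a control library were not analysed here.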
